A study of Homo sapiens with 6 samples.

Results

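The matrix proteases and their inhibitors described here are 9 genes, the matrix metalloproteinases *MMP1*, *MMP2*, *MMP7*, *MMP9* and *MMP14*, the tissue inhibitors of metalloproteinases *TIMP1*, *TIMP2* and *TIMP3*, and *PLAU*, which encodes the urokinase plasminogen activator. They were chosen by name, as the rows of the expression tables that carry these symbols, out of 39739 gene rows in all. The choice was made with earlier results of these data known. RNA-seq had been performed on 6 libraries of HGC27 cells, an established line of undifferentiated human gastric cancer. In 3 libraries the cells stably overexpressed the *FN1* 3′-UTR after lentiviral infection (HGC27-FN1 3′-UTR cells, called overexpressing cells below), and the other 3 were HGC27-control cells (control cells) without it. The overexpressing cells had been selected with puromycin, and the labels do not say what the control cells carried, whether the resistant cells were clonal, or whether replicates came from separate cultures. The p-values therefore measure the spread between these libraries, which may be technical.

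Metalloproteinases of this family are zinc enzymes that are made as inactive precursors and cut collagens, gelatin, laminins and other matrix proteins outside the cell. TIMPs bind the active site of these enzymes and hold them inactive, and the balance between enzyme and inhibitor is part of what limits matrix breakdown around gastric tumors. MMP14 sits in the cell membrane and, together with TIMP2, activates the MMP2 precursor, while urokinase on its receptor turns plasminogen into plasmin, which cuts matrix and can activate several MMP precursors. RNA levels say nothing of precursor activation, secretion or enzyme activity.

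Expression was given as RPKM, reads per kilobase of gene length and per 1000000 reads assigned to genes. The length is that of all annotated exons of a gene merged, which can be longer than the transcript expressed. Levels of different genes can therefore be compared only roughly, and levels in different libraries are relative to all assigned reads. Depth was 16357085 to 29202046 reads in the overexpressing libraries and 22332816 to 37037532 in the control libraries, so 3 reads corresponded to 0.081 to 0.1834 reads per 1000000. *FN1* itself, read over its whole length, was 0.780 ± 0.0371 RPKM (SD, n = 3) in overexpressing cells and 0.516 ± 0.037 RPKM in control cells (log2 fold change 0.52, SE 0.108, limma adjusted p = 0.0292), with adjusted p of 0.0614 to 0.0982 when any 1 library was left out. The groups also differed in markers of epithelial carcinoma cells and in 1 marker of mesenchymal-like carcinoma cells, *SNAI2*. Of 7 epithelial markers 6 rose, against 5.62% of all tested genes higher and 7.36% lower at an adjusted p under 0.05. Of the 6, *KRT7* and *KRT19* could be tested only because they were higher. *CLDN4* had a lower mean without passing, at 0.265 ± 0.0621 against 0.316 ± 0.0335 RPKM (SD, n = 3, limma adjusted p = 0.545). The summed level of the 7 was 18.7 to 27.63 RPKM in overexpressing libraries and 2.993 to 3.348 RPKM in control libraries. Most of it was *KRT8*, with means of 12.24 against 2.152 RPKM. The mesenchymal list (*VIM*, *FN1*, *ZEB1*, *SNAI2*) summed to 309.9 to 336.0 RPKM against 303.7 to 342.0 RPKM, nearly all of it *VIM*. Of the 4, *FN1* and *SNAI2* rose. The overexpressed sequence is part of *FN1*, so the rise of *FN1* cannot count as a marker change. *SNAI2* rose to 4.557 ± 0.281 from 2.463 ± 0.368 RPKM (SD, n = 3, limma adjusted p = 0.00718). *VIM* and *ZEB1* had log2 fold changes of 0.0062 and 0.0152 and did not pass (limma adjusted p = 0.958 and 0.863). Endothelial markers were below 0.1 RPKM in every library, and so were *PTPRC*, *CSF1R* and *ITGAM* among the 5 leukocyte markers. The other leukocyte markers did not pass the test, with *CD68* at 1.815 to 2.373 RPKM and *CD14* at 0.08684 to 0.2849 RPKM over the 6 libraries. In bulk RNA, a change in the share of cells that make a transcript and a change in its amount per cell cannot be told apart.

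The 9 genes spanned a wide range of expression. In order of the median over the 6 libraries, *MMP14* stood at 30.31 RPKM, *TIMP2* at 13.74, *TIMP3* at 8.81, *TIMP1* at 5.747, *MMP2* at 1.533, *PLAU* at 0.4497, *MMP1* at 0.06333, *MMP9* at 0.0216 and *MMP7* at 0 RPKM. Over all 6 libraries the range of *TIMP3* overlapped those of *TIMP2* and *TIMP1*, which did not overlap each other. Within each group *TIMP2* lay above *TIMP3* and *TIMP3* above *TIMP1* in every library. *MMP2* and *PLAU* were separated from their neighbors, whereas *MMP1* overlapped *MMP9*, and *MMP9* overlapped *MMP7*. Of these 9 genes, the membrane-anchored protease and the 3 inhibitors were thus above 4 RPKM in every library, and the secreted proteases were at low levels or at single reads.

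**Figure D1:**
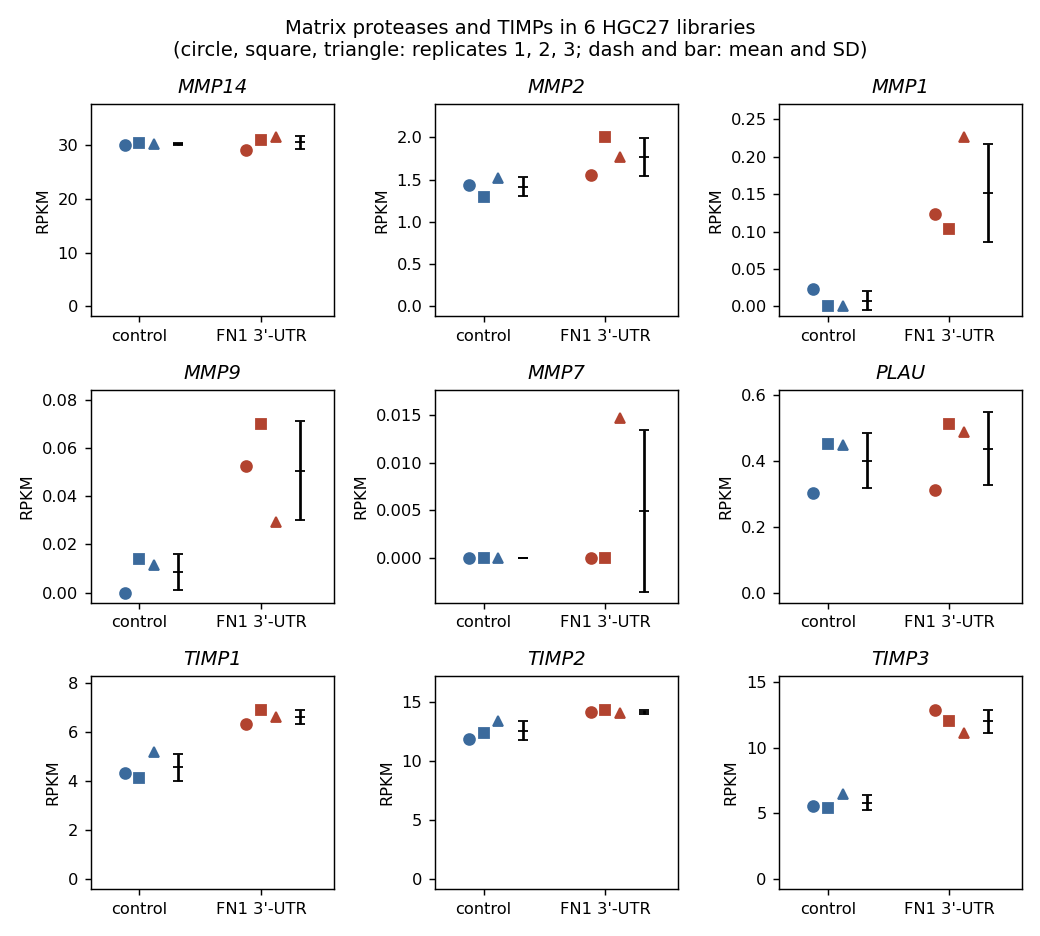
RPKM of each of the 9 genes (vertical axes, separate scales) in the 3 control and 3 overexpressing libraries. Points are libraries and the dash and bar give the mean and SD (n = 3), which runs below 0 for *MMP1* in control and *MMP7* in overexpressing libraries. *TIMP3* shows the widest gap among the genes above 1 RPKM, while the *MMP14* and *PLAU* points of both groups overlap.

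*MMP14*, the membrane-type protease that cuts collagen at the cell surface, lies on chromosome 14 from 22836557 to 22849027 (GRCh38, plus strand). It was 29.23, 31.02 and 31.49 RPKM in overexpressing replicates 1, 2 and 3 and 30.05, 30.44 and 30.17 RPKM in the control replicates. The groups overlapped, with the lowest and the highest values both in overexpressing cells. The log2 fold change was 0.02 with a 95% interval from -0.07 to 0.10 (limma adjusted p = 0.809), so a difference larger than this interval was not seen at 2134 to 4988 reads per library.

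*MMP2*, the gelatinase that MMP14 activates, lies on chromosome 16 from 55389700 to 55506691 (plus strand). It was 1.549, 2.0 and 1.77 RPKM in overexpressing cells and 1.434, 1.296 and 1.516 RPKM in control cells. All 3 overexpressing values lay above the controls, but replicate 1 of the former and replicate 3 of the latter were close to each other. The means of 1.773 ± 0.226 and 1.415 ± 0.111 RPKM (SD, n = 3) gave a log2 fold change of 0.30 (SE 0.112, 95% interval 0.03 to 0.57), which did not pass the test over all genes (limma adjusted p = 0.132). With limma voom on the reads recovered from RPKM, which weights each value by its read number, the adjusted p was 0.0191. Of the merged *MMP2* exons, 174 bases (3.53%) are shared with *RP11-212I21.3* on the same strand.

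*MMP1*, the interstitial collagenase that cuts fibrillar collagens, was close to the limit of detection (chromosome 11, 102789920 to 102798160, minus strand). It was 0.1241, 0.1039 and 0.226 RPKM in overexpressing cells, from 4, 5 and 13 reads, and 0.02273, 0 and 0 RPKM in control cells, from 1 read in replicate 1. The groups did not overlap, and a count of 0 in control replicates 2 and 3 allows up to 0.0494 and 0.0411 RPKM. Summed over the libraries, 22 reads stood against 1, a ratio per sequenced read of 28.4 with an exact 95% interval from 4.58 to 1170 that covers counting error only. The fit gave a log2 fold change of 1.20 on log2(RPKM + 0.1) with SE 0.292 (limma adjusted p = 0.0455). *MMP1* entered that fit only through the overexpressing libraries, since a gene needed 0.1 RPKM in at least 3 libraries, and its estimate ran from 0.19 to 3.37 with the added constant. The call was lost with a constant of 1 (adjusted p = 0.0667) or 0.01 (0.0778) and without any 1 of the control replicates (0.0766, 0.129 and 0.108), and leaving out any overexpressing library took the gene below the minimum. On the opposite strand *WTAPP1* shares 150 bases (7.61%) of its exons.

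*MMP9*, the other gelatinase, was below 0.1 RPKM in every library and was not tested (chromosome 20, 46008908 to 46016561, plus strand). It had 2, 4 and 2 reads in overexpressing cells, or 0.05234, 0.07011 and 0.02932 RPKM, and 0, 1 and 1 reads in control cells, or 0, 0.01389 and 0.01156 RPKM. The groups did not overlap, and 8 reads against 2 gave a ratio per sequenced read of 5.15 with an exact 95% interval from 1.03 to 49.8 for counting error alone. *RP11-465L10.10* on the opposite strand shares 430 bases (18.4%) of the *MMP9* exons and had 60 reads in all. *MMP7*, matrilysin, had 1 read in overexpressing replicate 3 and none elsewhere, where 3 reads would correspond to 0.0349 to 0.079 RPKM over all libraries (chromosome 11, 102520508 to 102530753, minus strand). No difference in *MMP7* was detectable at this depth.

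The *MMP7* promoter carried a match to the AP-1 motif TGANTCA, which is shown because AP-1 sites are known from several MMP promoters. Promoters were taken as 250 bases before to 50 bases after the RefSeq start on GRCh38.p14, and entries were found for 5 of the 9 genes, *MMP7*, *MMP14*, *TIMP1*, *TIMP3* and *PLAU* (with 2 starts). Both strands were searched, motifs are in capitals and are written along the gene's strand, offsets count from the start base as 0, and no matches in these promoters overlapped each other.
*MMP7* AP-1 match, offset -67 to -61, chr11:102530798-102530824, minus strand: aacactcaaaTGAGTCAcctatttcca
*MMP7* TATA box TATAAA, offset -30 to -25, chr11:102530761-102530787, minus strand: tgagaagctaTATAAAtttctgcagtc
*MMP14* GC box GGGCGG, offset -66 to -61, chr14:22836509-22836535, plus strand: gagggcactgGGGCGGggacggaggag
The other promoters held no match to the AP-1 letters, which 7.71% of 35116 promoters of this length hold, or to TATAAA, which 11.5% hold. A match is a string of letters and not a measured binding site, and its absence says only that these letters were not in the window.

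*PLAU* showed overlapping groups (chromosome 10, 73909177 to 73917497, plus strand). It was 0.3109, 0.5135 and 0.4875 RPKM in overexpressing cells and 0.3036, 0.451 and 0.4485 RPKM in control cells, with replicate 1 the lowest of both groups. The log2 fold change was 0.09 with a 95% interval from -0.44 to 0.63 (limma adjusted p = 0.825), an interval that leaves room for a change in either direction. *C10orf55* on the opposite strand shares 916 bases (31.1%) of the *PLAU* exons and was 0.1074 to 0.2179 RPKM. The libraries were strand-specific, but whether the counting used the strand is not given in the sources used here, so reads of such opposite pairs may not be fully separated.

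Among the inhibitors, *TIMP3* and *TIMP1* rose, and *TIMP2* was higher in each overexpressing library without passing the test. *TIMP3*, the inhibitor that stays bound to the matrix and also blocks several ADAM proteases, lies on chromosome 22 from 32801701 to 32863043 (plus strand), within *SYN3* on the opposite strand but with no shared exon bases. It was 12.88, 12.04 and 11.11 RPKM in overexpressing cells and 5.555, 5.386 and 6.505 RPKM in control cells. Every overexpressing library lay above every control, and control replicate 3 was the highest control. The means of 12.01 ± 0.885 and 5.815 ± 0.603 RPKM (SD, n = 3) differed 2.07-fold, with a log2 fold change of 1.04 (SE 0.0872, 95% interval 0.83 to 1.25, limma adjusted p = 0.00201). *TIMP3* kept an adjusted p under 0.05 in all 14 alternative fits, among them those without any 1 library.

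*TIMP1*, a secreted inhibitor of most soluble MMPs that also acts as a growth factor, lies on chromosome X from 47582313 to 47586789 (plus strand), within *SYN1* on the opposite strand without shared exon bases. It was 6.308, 6.882 and 6.578 RPKM in overexpressing cells and 4.3, 4.127 and 5.186 RPKM in control cells. The groups did not overlap, and control replicate 3 was again the control nearest to the other group. The means of 6.589 ± 0.287 and 4.538 ± 0.568 RPKM (SD, n = 3) differed 1.45-fold (log2 fold change 0.53, SE 0.0908, 95% interval 0.32 to 0.75, limma adjusted p = 0.0163). Without overexpressing replicate 2 or 3 the adjusted p was 0.0574 or 0.0507, and without control replicate 1 or 2 it was 0.05 or 0.0575.

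*TIMP2*, which both inhibits MMP2 and serves in its activation by MMP14, lies on chromosome 17 from 78852977 to 78925387 (minus strand). It was 14.15, 14.34 and 14.05 RPKM in overexpressing cells and 11.84, 12.41 and 13.43 RPKM in control cells. The groups did not overlap, the overexpressing values were close together and the controls were spread. The means of 14.18 ± 0.148 and 12.56 ± 0.804 RPKM (SD, n = 3) gave a log2 fold change of 0.18 (SE 0.0502, 95% interval 0.05 to 0.30), which did not pass the test over all genes (limma adjusted p = 0.0701). It passed without control replicate 3 (log2 fold change 0.22, adjusted p = 0.0318), with median-ratio scaling between libraries (0.0301) and with voom on recovered reads (0.0113). *CEP295NL* on the same strand shares 198 bases (3.52%) of the *TIMP2* exons and was 7.714 to 9.056 RPKM, and *RP11-323N12.5* on the opposite strand shares 367 bases (6.52%).

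The promoters of both inhibitors that rose held GC boxes and neither of the other motifs. *TIMP3* held 5 matches to GGGCGG on either strand and *TIMP1* held 2, against 1 in *MMP14*, none in *MMP7* and 3 in 1 of the *PLAU* promoters. GC boxes are common, with a match in 45.0% of the 35116 promoters. The 2 matches nearest to the start are shown for each inhibitor, with CCGCCC the same motif on the other strand.
*TIMP3* GC box, offset -76 to -71, chr22:32801619-32801645, plus strand: tggtctgaggGGGCGGgccccaacagc
*TIMP3* GC box, offset -18 to -13, chr22:32801677-32801703, plus strand: tatcactcggCCGCCCaggcagcggcg
*TIMP1* GC box, offset -135 to -130, chrX:47582291-47582317, plus strand: tttcgtcggcCCGCCCcttggcttctg
*TIMP1* GC box, offset -45 to -40, chrX:47582381-47582407, plus strand: gctgccacccCCGCCCctagcgtggac

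Some of the markers that fibroblasts share with matrix-producing cancer cells were also higher in overexpressing cells. Of 8 such markers 4 rose (*COL1A1*, *COL1A2*, *COL3A1* and *LUM*) and none was called lower, against 5.62% higher and 7.36% lower among all tested genes. The summed level of the 8 was 171.5 to 174.5 RPKM in overexpressing libraries against 117.1 to 134.3 RPKM in control libraries. Most of it was *COL3A1*, with means of 111.3 against 82.12 RPKM, and *COL1A1*, with 44.5 against 30.54 RPKM. None of the 8 was at 0 in either group. *PDGFRA* was lower in every overexpressing library without passing the test, at 1.99 ± 0.151 against 2.31 ± 0.0697 RPKM (SD, n = 3, limma adjusted p = 0.117). *DCN* was higher in each without passing, at 2.017 ± 0.0918 against 1.637 ± 0.186 RPKM (limma adjusted p = 0.102). *PDGFRB* and *FAP* were 0.172 and 0.162 RPKM against 0.158 and 0.145 RPKM. The part of these markers in the *TIMP1* and *TIMP3* results was not tested.

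Across the 9 genes, 7 reached the minimum for testing and 3 rose at an adjusted p under 0.05, *TIMP3*, *TIMP1* and *MMP1*, of which *MMP1* could be tested only because it was higher. None fell, and *MMP2*, *MMP14*, *TIMP2* and *PLAU* did not pass. Among all 23299 genes tested, 13.0% passed in either direction, 5.62% higher and 7.36% lower, and the median log2 fold change was -0.04. Under an absolute log2 fold change above 1 with unadjusted p under 0.05, *TIMP3* and *MMP1* passed, both higher, against 2.47% of all genes in either direction and 1.65% higher. Libraries of both groups were fully separated for 6 of the 9 genes, *MMP1*, *MMP2*, *MMP9* and the 3 TIMPs, each time with overexpressing cells higher. Of the 7 tested this held for 5, *MMP9* being untested. Among all tested genes, 36.0% did not overlap and 14.3% were higher without overlap. *MMP1*, 1 of the 5, reached the minimum only through its overexpressing libraries, which fixes its separation and direction. Of all genes passing the test, 43.3% were higher in overexpressing cells, and 56.0% after median-ratio scaling.

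**Figure D2:**
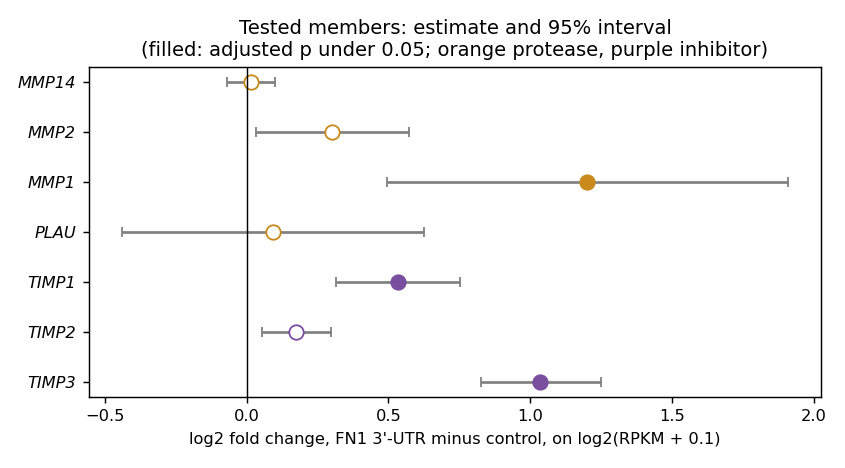
Log2 fold change of overexpressing over control cells on log2(RPKM + 0.1) for the 7 tested genes, proteases in orange and inhibitors in purple. Points are limma estimates from 3 libraries per group, bars are 95% intervals, and filled points passed an adjusted p of 0.05. *TIMP3* at 1.04 has a narrow interval, *MMP1* at 1.20 a wide one, and the intervals of *MMP14* and *PLAU* include 0.

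Proteases were then set beside inhibitors within each library by summing RPKM over the 5 MMPs and over the 3 TIMPs. The level of each sum and of their ratio depends on the gene lengths used for RPKM. The MMP sum was 30.95, 33.19 and 33.53 RPKM in overexpressing replicates 1, 2 and 3 and 31.51, 31.75 and 31.7 RPKM in control replicates, so the groups overlapped. *MMP14* alone made up 93.45% to 95.88% of it. The TIMP sum was 33.34, 33.27 and 31.74 RPKM against 21.7, 21.92 and 25.12 RPKM, higher in every overexpressing library, with means of 32.78 ± 0.904 and 22.91 ± 1.91 RPKM (SD, n = 3).

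The ratio of the MMP sum to the TIMP sum was accordingly 0.9283, 0.9978 and 1.056 in overexpressing cells and 1.452, 1.448 and 1.262 in control cells. Every overexpressing library had the lower ratio, and the means of 0.994 ± 0.0641 and 1.387 ± 0.109 differed by -0.393. The mean TIMP sum was 1.43-fold that of control cells, and the mean MMP sum, mostly *MMP14*, was 1.03-fold. Without *MMP14* the difference in ratio was -0.0021, and without *TIMP2* it was -1.33. Leaving out either gene also shifts the level of the ratio itself, so these differences cannot be compared in size with -0.393. The sums are given without a test, since the genes were chosen with earlier results of these libraries known, and they do not hold *MMP15* and *MMP16*, which are described with the other MMPs.

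The makeup of the TIMP sum also differed between the groups, again without a test. *TIMP3* gave 36.62% ± 1.85 of the TIMP sum in overexpressing cells and 25.35% ± 0.696 in control cells (SD, n = 3), and *TIMP2* gave 43.27% and 54.88%. The share of *TIMP1* was 20.11% ± 1.03 and 19.76% ± 0.91, a difference within the spread. The *TIMP3* level per *TIMP2* level was 0.9103, 0.8398 and 0.7911 in overexpressing cells and 0.469, 0.4341 and 0.4844 in control cells, while *MMP2* per *TIMP2* overlapped between the groups, with means of 0.125 ± 0.015 and 0.1128 ± 0.00833.

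**Figure D3:**
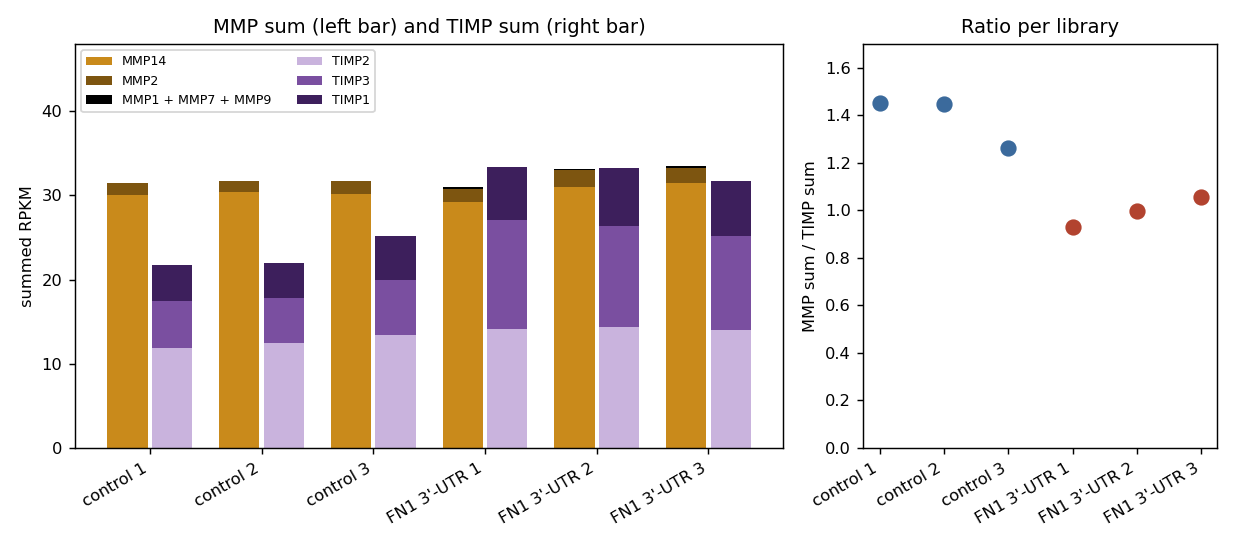
Left, summed RPKM of the 5 MMPs and of the 3 TIMPs in each library, stacked by gene, with *MMP14* and *TIMP2* at the base. Right, the ratio of both sums in each library, which was 1.262 to 1.452 in control and 0.9283 to 1.056 in overexpressing libraries.

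The study also followed 4 miRNAs that were assayed against the *FN1* 3′-UTR, so the 3′-UTRs of the 9 genes were searched for their seed matches. The mature sequences from RefSeq (GRCh38.p14) are shown 5′ to 3′ with the seed, bases 2 to 8, in capitals, and no 2 of the 4 share a seed.
let-7i-5p: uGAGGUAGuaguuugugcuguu
miR-423-5p: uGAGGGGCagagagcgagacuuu
miR-629-5p: uGGGUUUAcguugggagaacu
miR-296-3p: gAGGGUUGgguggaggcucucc
The letters searched, in the order above, were CTACCTC for let-7i-5p, GCCCCTC for miR-423-5p, TAAACCC for miR-629-5p and CAACCCT for miR-296-3p, in 1 GENCODE 29 transcript per gene, on the transcript's strand. The 3′-UTRs of *TIMP3* (3666 bases), *TIMP2* (2690 bases) and *TIMP1* (98 bases) held none of the 4. A let-7i-5p match is found in 19.1% of 3′-UTRs of similar length to that of *TIMP3*, within 20% of its length, and none of the 9 genes held one. Matches were found in 3 proteases, and each is printed with the seed match in capitals.
*MMP2* and miR-423-5p, chr16:55506172-55506178, plus strand: cgctcagccctccctGCCCCTCcc
*MMP2* and miR-296-3p, chr16:55505674-55505680, plus strand: cccctccaatcccacCAACCCTca
*MMP14* and miR-423-5p, chr14:22846285-22846291, plus strand: ccctttccagcctctGCCCCTCag
*MMP9* and miR-296-3p, chr20:46016415-46016421, plus strand: aatccccactgggacCAACCCTgg
The coordinates are those of the 7 capitals on GRCh38. Among 3′-UTRs of similar length, 15.0% hold the miR-423-5p match for *MMP2* and 18.4% for *MMP14*, and the miR-296-3p match is held by 6.98% for *MMP2* and 1.98% for *MMP9*. These genes are the ones described above with flat RNA (*MMP14*), an increase that did not pass the test (*MMP2*) or 8 against 2 reads (*MMP9*).

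The other genes of the extracellular protease system were taken from 9 lists with 114 genes, of which 62 were tested, 19 rose and 4 fell. Called genes were 37.1% of those tested, against 13.0% of all genes, and the median log2 fold change was 0.09 against -0.04 over all genes. Several of the list genes reached the minimum only through the overexpressing libraries, which fixes their direction. The lists were also chosen with earlier results of these data known, so these shares are only a description. Of the called genes named below, 10 kept the call without any 1 library in the fits in which they could be tested (*ADAM9*, *ADAMTS12*, *ANXA2*, *CD44*, *CST1*, *PLAUR*, *S100A10*, *SPINT1*, *SPINT2* and *ST14*). For *CST1*, *SPINT1* and *ST14* only the 3 fits without a control library could be run, since leaving out any overexpressing library took them below the minimum. The others named lost it in at least 1 of those fits.

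**Figure D4:**
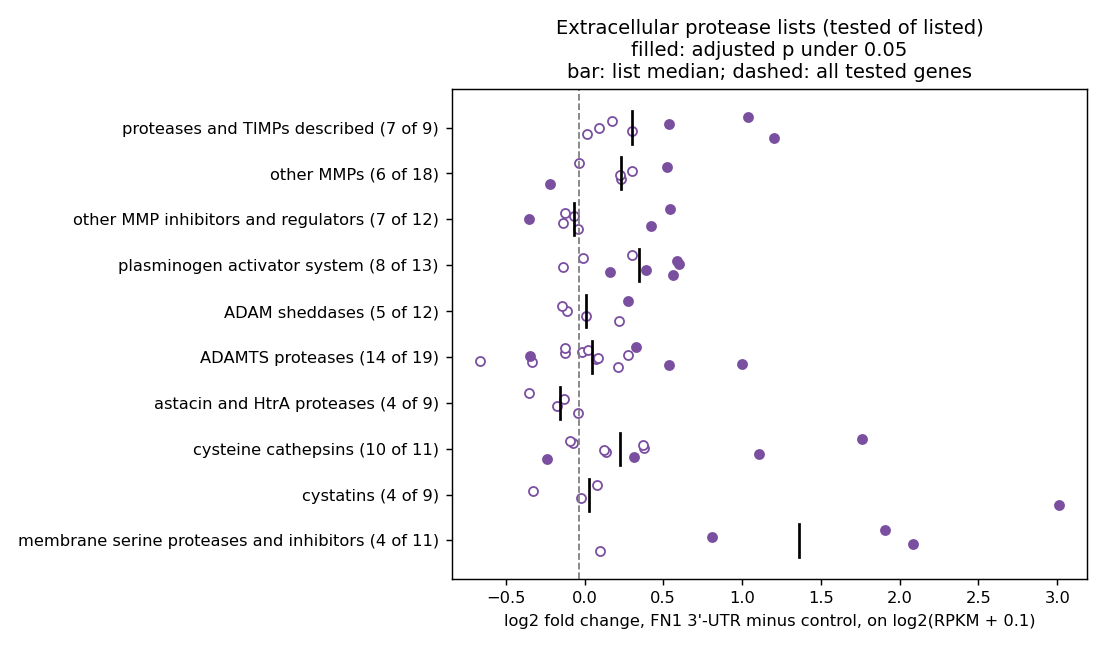
Log2 fold change of overexpressing over control cells on log2(RPKM + 0.1) for every tested gene (points) of the 9 genes described and of 9 lists of other protease genes, with the tested and listed numbers in brackets. Filled points passed an adjusted p of 0.05, bars mark list medians and the dashed line the median of all tested genes at -0.04. The plasminogen activator list has 5 filled points to the right of 0 and none to the left.

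Among the genes of the plasminogen activator system other than *PLAU*, 5 of 8 tested rose, none fell, and 5 of the 13 listed were below the minimum. The median log2 fold change of the tested genes was 0.35. *PLAUR*, the urokinase receptor, was 6.611, 6.118 and 6.638 RPKM in overexpressing cells and 4.983, 4.871 and 4.864 RPKM in control cells, without overlap (log2 fold change 0.39, SE 0.0468, limma adjusted p = 0.00599). *S100A10* and *ANXA2*, partners in a surface complex that binds plasminogen, rose together, *S100A10* to 45.19 ± 1.56 from 29.83 ± 0.445 RPKM (SD, n = 3, limma adjusted p = 0.000557) and *ANXA2* to 60.76 ± 1.79 from 41.13 ± 3.29 RPKM (limma adjusted p = 0.00411). *ENO1*, a glycolytic enzyme that also binds plasminogen at the cell surface, had a log2 fold change of 0.16 (limma adjusted p = 0.0446, and 0.0459 to 0.141 with 1 library left out). *PLAT*, the tissue-type activator, was below the minimum with 24 reads in the overexpressing libraries and 13 in the controls, and *PLG*, plasminogen itself, had 0 and 2 reads.

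Of 18 other MMPs, 6 were tested, with 1 higher and 1 lower. *MMP15*, another membrane-type enzyme and the most abundant of the MMPs analysed here after *MMP14*, was 6.129, 5.967 and 5.851 RPKM in overexpressing cells and 6.576, 7.211 and 7.204 RPKM in control cells (log2 fold change -0.22, SE 0.0502, limma adjusted p = 0.0372). *MMP24*, also of the membrane type, was 0.674 ± 0.0403 against 0.439 ± 0.0147 RPKM (SD, n = 3, log2 fold change 0.52, limma adjusted p = 0.0301). With 1 library left out the adjusted p was 0.0293 to 0.127 for *MMP15*, which kept its call only without control replicate 1, and 0.0711 to 0.091 for *MMP24*. *MMP16* was 1.637 ± 0.0316 against 1.381 ± 0.0289 RPKM without overlap and did not pass (log2 fold change 0.23, limma adjusted p = 0.0682). *MMP10*, a stromelysin, had 3 reads in overexpressing and none in control libraries, and *MMP13*, a collagenase, had 1 against 2 reads. *MMP3* was not analysed here.

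Of 12 other inhibitors and regulators of MMPs, 7 were tested, 2 rose and 1 fell. *RECK*, a membrane inhibitor of MMPs, had no read in any library, and *TIMP4* had 2 reads in overexpressing and none in control libraries. *CD44*, the hyaluronan receptor that docks MMP14 and MMP9 at the surface, rose to 4.016 ± 0.153 from 2.974 ± 0.205 RPKM (SD, n = 3, log2 fold change 0.42, limma adjusted p = 0.013). *LRP1*, the receptor that takes up MMPs, TIMPs and urokinase complexes, fell to 2.411 ± 0.0617 from 3.113 ± 0.162 RPKM (log2 fold change -0.35, limma adjusted p = 0.0161, and 0.0259 to 0.0707 with 1 library left out). *TFPI2*, a Kunitz-type inhibitor of plasmin, was 0.816 ± 0.106 against 0.528 ± 0.0587 RPKM (limma adjusted p = 0.0499, and 0.068 to 0.135 with 1 library left out). *BSG*, the MMP inducer also called EMMPRIN, was 120.4 ± 4.22 against 124.0 ± 8.26 RPKM (limma adjusted p = 0.683), and *FURIN*, which activates the MMP14 precursor, had a log2 fold change of -0.14 (limma adjusted p = 0.348). Both groups overlapped for *BSG* and for *FURIN*.

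Among the ADAM sheddases, membrane proteases that release surface proteins, 1 of 5 tested rose and none fell. *ADAM9* was 18.5 ± 0.186 against 15.26 ± 0.256 RPKM (SD, n = 3, log2 fold change 0.28, limma adjusted p = 0.00404). Of 14 tested ADAMTS proteases, which cut proteoglycans and procollagens, 3 rose and 1 fell. *ADAMTS12* rose to 0.846 ± 0.0583 from 0.374 ± 0.031 RPKM (a 2.26-fold difference of the means, SE 0.117 on the log2 scale, limma adjusted p = 0.00559). *ADAMTS10* and *ADAMTS9* had log2 fold changes of 0.54 and 0.33 (limma adjusted p = 0.0369 and 0.0211), and *ADAMTS2*, a procollagen N-proteinase, of -0.35 (0.0126). With 1 library left out the adjusted p reached 0.109 for *ADAMTS10*, 0.0808 for *ADAMTS9* and 0.0601 for *ADAMTS2*. None of the 4 tested astacin and HtrA proteases passed.

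Cysteine cathepsins, mostly lysosomal proteases, rose in 3 and fell in 1 of 10 tested, and 1 of 4 tested cystatins, their inhibitors, rose. *CTSC* was 3.355 ± 0.153 against 2.675 ± 0.159 RPKM and *CTSB* 10.73 ± 0.463 against 12.7 ± 0.781 RPKM (SD, n = 3, limma adjusted p = 0.0284 and 0.0407), and both calls were lost in most fits with 1 library left out. *CTSZ* had 60 reads against 10, and *CST1*, a secreted cystatin, 66 against 4, and both entered the fit only through overexpressing libraries. Of the 3 cathepsins that rose, 1 more, with too few reads to be named, entered in the same way. The membrane serine proteases and their inhibitors had 3 higher of 4 tested and 7 of the 11 listed were below the minimum, but *ST14* and *SPINT1* could be tested only because they were higher. *SPINT2*, an inhibitor of matriptase and hepsin, was 1.286 ± 0.034 against 0.691 ± 0.0468 RPKM (log2 fold change 0.81, limma adjusted p = 0.00459). *ST14*, which encodes matriptase, had 157 reads against 21 and *SPINT1*, its inhibitor, 111 against 7, and in control cells both were below 0.1 RPKM. These are genes of epithelial cells, whose markers differed between the groups as given above, and the part of those markers in this result was not tested.

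The genes whose profile over the 6 libraries was nearest to that of the called genes were found among 14652 tested genes with a mean of at least 1 RPKM, by the Euclidean distance between centered log2 values. For *TIMP3* they were *ADM*, *LUM* and *GPNMB*, at distances of 0.103, 0.158 and 0.167 log2 units. For *TIMP1* they were *TFAP2A*, *COL1A1* and *ARRDC4* at 0.0763, 0.135 and 0.15. For *MMP1* the nearest, *RP1-244F24.1*, *IFI6* and *TMEM173*, lay farther off at 0.458, 0.458 and 0.496. The likeness is over 6 libraries of 2 groups, which any genes with the same group difference share in part.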

How the data were processed

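Groups and replicate numbers of the 6 libraries came from the sample labels. The authors sequenced stranded mRNA libraries and deposited RPKM per gene, 1 table per library. The submitters' processing notes name Trimmomatic 0.36, STAR 2.5.3a, featureCounts, Subread 1.5.1 and GRCh38, while the annotation release is not given in the sources used here. All values above 0 were whole multiples of 1 read within 0.05 reads, which gave reads and depth.

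Genes with at least 0.1 RPKM in 3 or more libraries were fitted with limma 3.58.1 in R 4.3.3 on log2(RPKM + 0.1), by group, with a trend in the prior variance, two-sided, and Benjamini-Hochberg adjustment over all 23299 genes. A fold change on this scale understates that of low genes. The main test used the deposited RPKM, and reads recovered from it entered only the voom alternative and the read ratios of *MMP1* and *MMP9*. Replicates of a group differed beyond sampling noise (chi-square per gene 2.67 to 6.19). The 9 genes and all lists were chosen with earlier results of these data known. Named were the 9 genes, *FN1*, 12 genes set by name, the 5 largest called changes of each list with at least 10 reads in each library of the higher group, the marker lists, and the 3 nearest genes of each called gene. *PLG*, markers and overlapping genes are named for context. Of the genes under this rule, 1 is not reported here. Alternatives were other constants, filters, scaling and variance models, a replicate block and leaving out each library. Tables and figures were made with Python 3.11.15, pandas 2.3.3 and matplotlib 3.10.9, and scripts were tested on simulated data.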

Additional observations from a re-analysis of the deposited data

How the results depend on the processing

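*TIMP3* passed in all 14 alternatives (log2 fold change 0.94 to 1.12), *TIMP1* in 9 of 14, *MMP1* in 4 of the 10 in which it could be tested, *TIMP2* in 3 and *MMP2* in 1, and *MMP14* and *PLAU* in none. Among the fits with 1 library left out, estimates changed sign for *PLAU* without overexpressing replicate 2 (-0.0134) or control replicate 1 (-0.0552 in a range to 0.276), for *MMP14* without overexpressing replicate 3 (-0.0053 in a range to 0.0484) and for *BSG* without control replicate 3 (0.0107 in a range from -0.084), with none of them called. Whether equal replicate numbers mark a shared batch is not given in the labels and was not settled by the values. The correlation of deviations was only 0.00244 to 0.0211 for equal numbers, but 5 of 6 libraries were nearest to their own number. Depth also rose with the replicate number in both groups. With the replicate block, 564 genes were higher and 598 lower, 1 of the 9 genes was called and the lists had 10 higher and 2 lower, with adjusted p of 0.0502 for *TIMP1* and 0.0271 for *TIMP3*. Voom called 2043 genes higher and 3065 lower, and 5 of the 9 genes higher. The list genes called lower were 2 without a filter and 2 without the variance trend, and those called higher were 10 at a minimum of 1 RPKM. Leaving out 1 library gave 501 to 927 genes higher and 470 to 1015 lower, 1 to 3 of the 9 genes higher, and 7 to 13 list genes higher and 0 to 3 lower. Without *TIMP2* the difference in the TIMP sum was 8.25 RPKM and that in the MMP to TIMP ratio -1.33. Without *MMP14* the difference in that ratio was -0.0021, and both ratios stand at other levels than the full one. Beyond fewer samples or genes in a fit, the cause of these changes was not tested. *MMP1*, *MMP7* and *MMP9* are limited by read number.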
